A study of Mus musculus with 8 samples.

Results

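The AP-1 and EGR immediate early genes are described here in whisker follicles of mice given E7386. They are 10 genes chosen by name, Fos, Fosb, Fosl1, Fosl2, Jun, Junb, Jund, Egr1, Egr3 and Atf3, and all 10 were found through RefSeq accessions among 37018 genes on the array, on 11 probes. E7386 is a small molecule known as an inhibitor of the interaction between beta-catenin and CBP. Mice of the E7386 group took 30 mg/kg by mouth in each of 2 doses per day, starting at an age of 8 weeks, over 4 cycles that each had 5 dosing days followed by 2 days without drug. Mice of the vehicle group were given vehicle, and follicles were collected 6 h after dosing ended. There are 4 samples per group, all from female mice with the ApcMin/+ genotype. They are heterozygous for a truncating germline allele of Apc, so no group is without that allele. Nothing in the labels ties each sample to its own mouse, and p-values therefore measure the spread between these samples, which may be technical.

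Immediate early genes are switched on within minutes of a stimulus, without new protein synthesis, and their transcripts are short lived. FOS proteins pair with JUN proteins through leucine zippers to form AP-1, which binds DNA, while EGR proteins bind GC-rich sites through zinc fingers. In skin these factors are known to respond to growth factors, wounding and stress.

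Total RNA was labelled with Cy3 and each sample was hybridised to its own 1-colour Agilent array. Each value is the log2 processed signal after subtracting the 75th percentile of its array, so 0 is the 75th percentile of the array, and levels are compared only within a probe. The 75th percentile ranged from 397 to 536 on E7386 arrays and from 490 to 569 on vehicle arrays. The 12 measured markers of follicle epithelium were well above background on all 8 arrays, with a mean log2 level of 5.89 to 6.09 on E7386 arrays and 5.60 to 6.09 on vehicle arrays. Skeletal muscle RNA varied far more. The mean log2 level of 16 muscle markers was 1.93, 2.65, 4.67 and 4.77 on E7386 replicates 1 to 4, and 1.62, 3.97, 4.49 and 4.67 on vehicle replicates 1 to 4. These are bulk tissue values, in which fewer cells of a type and less RNA per cell cannot be told apart. All 8 arrays lie on 1 slide with each group in its own row, so row and treatment cannot be told apart.

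None of the 10 genes passed the threshold over all genes (limma, Benjamini-Hochberg adjusted p under 0.05), a threshold that 1.12% of the 25352 genes tested passed. Of the 9 genes well above background on all 8 arrays, 1 had an unadjusted p under 0.05, Fosl2 with a higher mean, beside 15.2% of all genes in either direction. Means were higher with E7386 for 6 genes and lower for 4, Egr3 among the 4, and the median log2 change was 0.07, beside 0.0088 over all genes tested. The groups of arrays did not overlap for 1 gene, Fosl2, against 10.5% of all genes. For those 9 genes the 95% interval of the change lay inside a 2-fold difference either way. Egr3 passed the filter on dim probes through its vehicle arrays only, so no test of it is read.

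**Figure D1:**
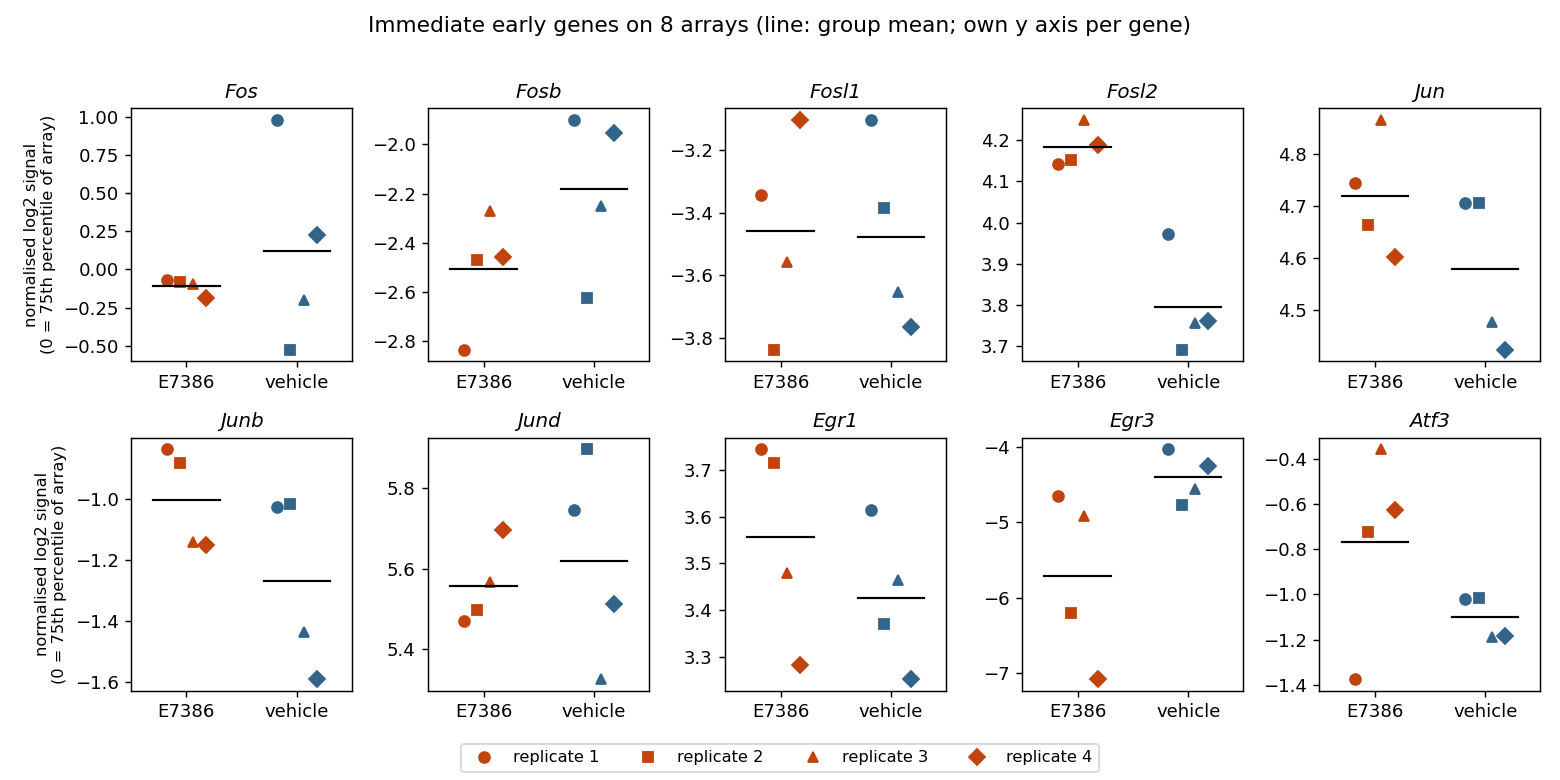
Normalised log2 signal (y axis, own scale per gene) of the 10 genes on each array, with E7386 left and vehicle right, a marker shape per replicate number and a line at the group mean. The 4 E7386 arrays of Fosl2, at 4.14 to 4.25, all lie above the 4 vehicle arrays, at 3.69 to 3.97; Fos spans -0.18 to -0.07 on E7386 arrays and -0.52 to 0.98 on vehicle arrays.

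Promoter windows are shown for Fosl2, whose groups did not overlap, and for Fos and Fosb, which shared their high and low vehicle arrays. They are RefSeq sequences of GRCm38.p6, 250 bases before to 50 bases after the annotated start, written 5′ to 3′ on the strand of the gene. Capitals mark TGACG, the core of the cAMP response element, and GCGGGGGCG, a GC-rich EGR-type motif. The Fosl2 window is chr5:32136222-32136521 on the + strand, the Fos window chr12:85473640-85473939 on the + strand, and the Fosb window chr7:19309996-19310295 on the - strand.
Fosl2: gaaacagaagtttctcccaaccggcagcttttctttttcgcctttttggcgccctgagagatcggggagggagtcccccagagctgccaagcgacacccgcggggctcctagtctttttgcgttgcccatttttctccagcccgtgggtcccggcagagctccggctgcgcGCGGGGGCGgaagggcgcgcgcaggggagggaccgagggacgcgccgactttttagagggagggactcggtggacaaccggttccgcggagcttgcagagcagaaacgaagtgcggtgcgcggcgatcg
Fos: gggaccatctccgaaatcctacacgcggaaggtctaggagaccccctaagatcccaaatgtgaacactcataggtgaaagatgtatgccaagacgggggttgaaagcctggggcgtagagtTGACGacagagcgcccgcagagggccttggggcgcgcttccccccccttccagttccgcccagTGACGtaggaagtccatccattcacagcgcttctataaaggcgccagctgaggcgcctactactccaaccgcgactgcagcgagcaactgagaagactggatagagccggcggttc
Fosb: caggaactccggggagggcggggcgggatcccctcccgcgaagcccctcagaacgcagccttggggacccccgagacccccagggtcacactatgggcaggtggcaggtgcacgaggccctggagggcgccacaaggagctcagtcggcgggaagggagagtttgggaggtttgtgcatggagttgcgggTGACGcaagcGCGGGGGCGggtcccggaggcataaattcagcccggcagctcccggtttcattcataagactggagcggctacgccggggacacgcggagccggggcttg

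Such windows were found for 7 of the 10 genes, not for Fosl1, Egr1 or Egr3, and 6 motifs were searched on both strands. TGACG occurred in the windows of 4 of the 7 genes and in 21.0% of 27025 gene promoters of the same length. It starts 129 and 66 bases before the start of Fos, 60 bases before that of Fosb and 106 bases before that of Junb. In the Atf3 window it lies on the opposite strand, read on the gene's strand as CGTCA from 7 bases before the start. GCGGGGGCG occurred in 2 of the 7, 79 bases before the start of Fosl2 and 50 bases before that of Fosb, and in 2.92% of all promoters. The full element TGACGTCA, which contains TGACG, was in none of the 7 and in 1.88% of all promoters. The AP-1 site TGANTCA was in none of them and in 7.93% of all promoters, the CArG box bound by serum response factor in none and in 1.57%, and GCGTGGGCG in none and in 0.625%. A match is a run of letters only, and sites outside the window or spelled otherwise were not searched.

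Among the FOS family, Fosl2 had the smallest p. Fosl2, which encodes FRA-2 and lacks the strong activation domain of FOS, had log2 levels of 4.14, 4.15, 4.25 and 4.19 on E7386 arrays, against 3.97, 3.69, 3.76 and 3.76 on vehicle arrays. Every E7386 array lay above every vehicle array. The difference was 1.31-fold, a log2 change of 0.39 (SE 0.08, 95% interval 0.20 to 0.57), and missed the threshold over all genes (limma adjusted p = 0.0742, two-sided p = 0.0286 by exact permutation, the lowest value possible with 4 arrays per group). With normexp background correction of the median signals followed by quantile normalization, a setting added after seeing the data, the change was 0.39 with a limma adjusted p = 0.0347. With the trend and robust options of eBayes together the limma adjusted p was 0.0376. A second, dimmer Fosl2 probe had -3.49, -3.72, -2.93 and -3.50 on E7386 arrays and -3.85, -3.86, -3.37 and -3.30 on vehicle arrays, a difference of 0.19 with groups that overlap. The mean of both probes gave 0.29 (limma adjusted p = 0.295).

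Fos, the partner of JUN in the classical AP-1 dimer, had -0.07, -0.08, -0.10 and -0.18 on E7386 arrays, and 0.98, -0.52, -0.20 and 0.23 on vehicle arrays. The E7386 arrays lay close together, inside the range of the vehicle arrays. The SD was 0.05 with E7386 and 0.65 with vehicle (n = 4 each), and the log2 change was -0.23 (SE 0.29, 95% interval -0.89 to 0.43, limma adjusted p = 0.766). The Fos probe is spotted 10 times on each array, and the SD of its spots within an array was 0.04 to 0.08 on E7386 arrays and 0.05 to 0.11 on vehicle arrays. Without vehicle replicate 1 the change was 0.06 (limma adjusted p = 0.9), so its sign rests on that array.

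Fosb, whose product also pairs with JUN proteins, had -2.84, -2.47, -2.27 and -2.46 on E7386 arrays, and -1.90, -2.62, -2.25 and -1.95 on vehicle arrays. As for Fos, vehicle replicates 1 and 4 were the highest of their group and vehicle replicate 2 the lowest. The log2 change was -0.33 (SE 0.18, limma adjusted p = 0.449), and without vehicle replicate 2 the groups did not overlap. Fosl1, which encodes FRA-1, had -3.34, -3.84, -3.56 and -3.10 on E7386 arrays, against -3.10, -3.39, -3.65 and -3.77 on vehicle arrays. Its groups covered nearly the same range, and the log2 change was 0.02 (SE 0.19, limma adjusted p = 0.983), negative under 9 of the 23 alternative settings.

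No gene of the JUN family passed the test. Jun, which can pair with itself as well as with FOS proteins, had 4.74, 4.66, 4.87 and 4.60 on E7386 arrays and 4.71, 4.71, 4.48 and 4.42 on vehicle arrays. The groups overlapped, with a log2 change of 0.14 (SE 0.10, 95% interval -0.09 to 0.37, limma adjusted p = 0.554). Junb, often described as a brake on JUN in the epidermis, had -0.84, -0.88, -1.14 and -1.15 on E7386 arrays and -1.03, -1.02, -1.44 and -1.59 on vehicle arrays. In both groups replicates 1 and 2 lay above replicates 3 and 4, and the log2 change was 0.26 (SE 0.15, limma adjusted p = 0.468). Jund, the JUN member that is expressed without a stimulus in most cells, had 5.47, 5.50, 5.57 and 5.70 on E7386 arrays and 5.75, 5.90, 5.33 and 5.51 on vehicle arrays. The vehicle arrays enclosed the E7386 arrays, and the log2 change was -0.06 (SE 0.13, 95% interval -0.36 to 0.24, limma adjusted p = 0.877).

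Egr1, a zinc finger factor induced through serum response factor, had 3.74, 3.72, 3.48 and 3.28 on E7386 arrays, against 3.62, 3.37, 3.46 and 3.25 on vehicle arrays. The groups overlapped over most of their range, and the log2 change was 0.13 (SE 0.13, 95% interval -0.16 to 0.43, limma adjusted p = 0.686). Egr3, a related factor that EGR1 can induce, had -4.65, -6.20, -4.91 and -7.08 on E7386 arrays and -4.04, -4.77, -4.57 and -4.26 on vehicle arrays. Among E7386 arrays 1 of 4 had its probe well above background, against 4 of 4 vehicle arrays, so most of its E7386 values lie near background. The size of its difference depended on the background correction, with a log2 difference of means of -1.30 as measured and -0.21 with normexp and quantile normalization, and none is given as a result.

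Atf3, a stress-induced factor that can form dimers with JUN proteins and often represses, had -1.38, -0.72, -0.36 and -0.62 on E7386 arrays and -1.02, -1.01, -1.19 and -1.18 on vehicle arrays. E7386 replicates 2, 3 and 4 lay above every vehicle array and E7386 replicate 1 below all of them. The SD was 0.43 with E7386 and 0.10 with vehicle (n = 4 each), and the log2 change was 0.33 (SE 0.20, limma adjusted p = 0.478). When 1 array was left out the change ran from 0.19 to 0.53. It was lowest without E7386 replicate 3, with a limma adjusted p = 0.743. It was highest without E7386 replicate 1, with no overlap and a limma adjusted p = 0.095. Over all 10 genes the range was smaller on E7386 arrays for 6 and smaller on vehicle arrays for 4.

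**Figure D2:**
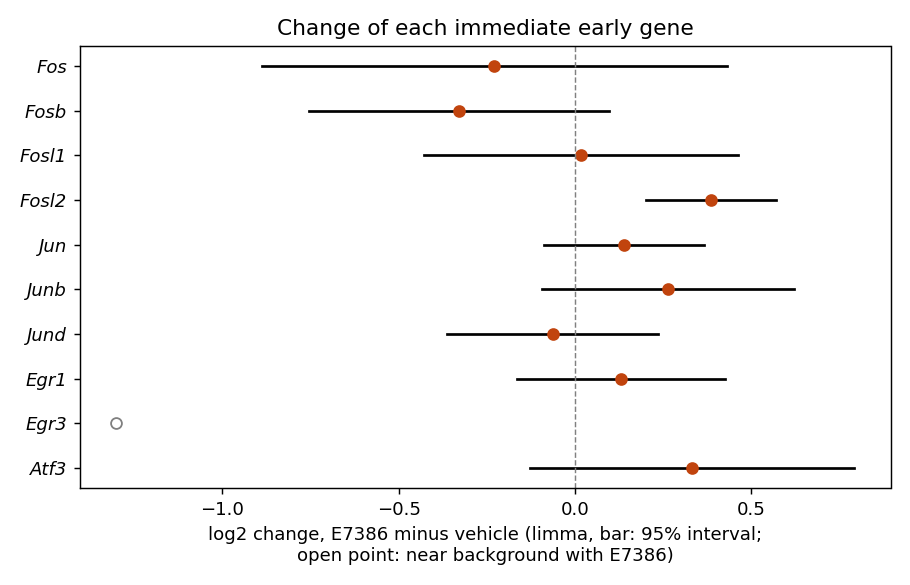
Log2 change, E7386 minus vehicle (x axis), of each of the 10 genes (y axis), with points at the limma estimate and bars for the 95% interval. The open point is Egr3, near background on most E7386 arrays and drawn without an interval; of the other 9 intervals, that of Fosl2 (0.20 to 0.57) does not reach 0 and those of the other 8 do.

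The spread within groups was described next. Each value was set against the mean of its own group, and the 10 deviations were averaged per array. The mean deviation was 0.05, -0.06, 0.14 and -0.13 on E7386 replicates 1 to 4, and 0.28, -0.08, -0.14 and -0.07 on vehicle replicates 1 to 4. The E7386 values rest on Egr3, whose probe is near background there. Over the other 9 genes the mean deviation was -0.06, -0.01, 0.06 and 0.01 on E7386 replicates 1 to 4, and 0.27, -0.05, -0.13 and -0.09 on vehicle replicates 1 to 4. Vehicle replicate 1 lay above its group mean for 10 of the 10 genes, where 59.1% of all genes tested did, and vehicle replicate 3 lay below for 9 of the 10. On E7386 arrays between 5 and 7 of the 10 genes lay above the group mean. Vehicle replicate 1 is also the array with the lowest muscle marker level, and the part of that level in these values was not tested.

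The genes also swung by different amounts. Among the 9 genes above background on all 8 arrays, the root mean square deviation was 0.40 for Fos, 0.27 for Atf3 and 0.08 for Fosl2, beside a median of 0.16 over all genes. The deviations of Fos and Fosb had the same sign on 6 of 8 arrays, and those of Fos and Jund on 3. Signs were shared most often, on 7 of 8 arrays, by Fosl2 and Jund, by Atf3 and Jund, and by Egr3 and Fos. The closest pair by size was Fosl2 and Jun, with a root mean square difference of 0.11, followed by Jun and Jund at 0.14 and Egr1 and Junb at 0.15. Fosl2 and Jun both swung little, at 0.08 and 0.11, and shared sign on 5 of 8 arrays. Among other named genes, the 10 closest to the mean deviation of all 10 immediate early genes were Ralgds, Pgap2, Tmprss13, Nectin4, Gm20604, Cfap74, Prr14l, Polr2h, Slc22a23 and Noct, with root mean square differences of 0.043 to 0.065 over 8 arrays. The mean deviation itself has a root mean square of 0.14, and 19.5% of named genes differed from it by less than that, so nearness here is common. Without Egr3 in the mean, 1 of these 10 genes remained among the 10 closest.

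**Figure D3:**
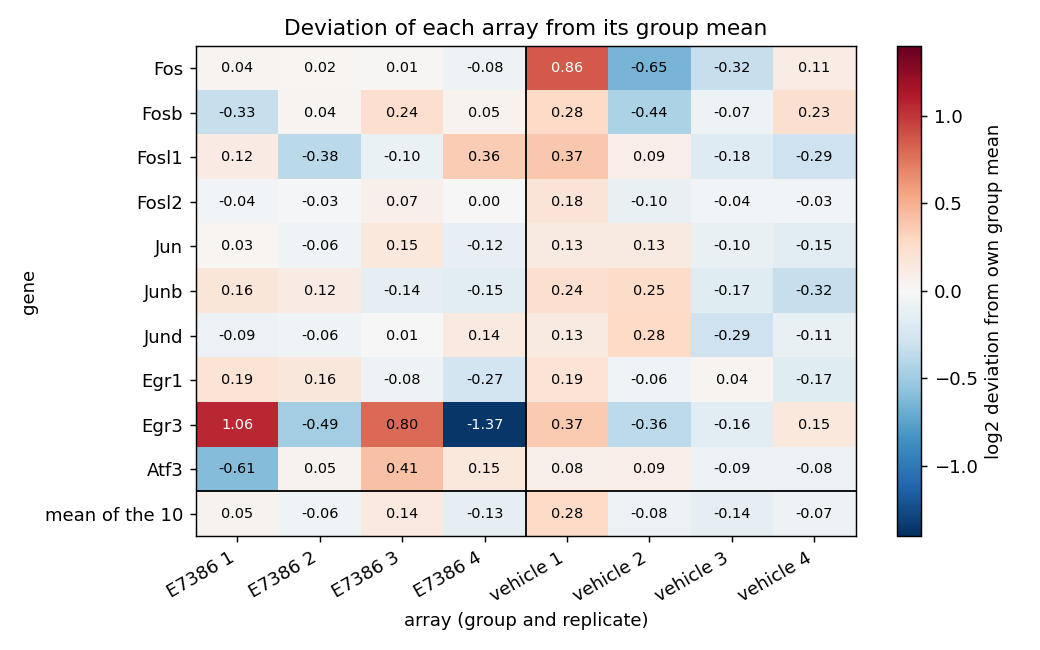
Deviation of each array (columns) from its own group mean on the log2 scale, for the 10 genes and for their mean (rows), with E7386 arrays left of the line. Vehicle replicate 1 is above 0 in every row, and the widest deviations are those of Egr3 on E7386 arrays, where its probe is mostly near background.

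Among other immediate early genes, more had higher than lower means with E7386, 29 against 17, and none passed the test. Of 48 listed genes 46 were tested, with 0 called over all genes by limma. The median log2 change was 0.07, beside 0.0088 over all genes. At an unadjusted p under 0.05, 12 of the 46 had higher means with E7386, where 7.47% of all genes did, and 0 had lower means, where 7.72% did. With arrays scaled to their median these counts were 6 higher and 3 lower, and the median log2 change over all genes was -0.068. With the muscle level as a covariate the counts were 14 and 2. The shares of all genes at that p were not counted under alternative settings. Without the 3 arrays of lowest muscle level, chosen after seeing the data, the counts were 7 and 2. Those 3 arrays are E7386 replicates 1 and 2 and vehicle replicate 1. Without E7386 replicate 3 the higher count was 7.

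The smallest p belonged to Nfkbiz, which encodes a nuclear IkB protein. Nfkbiz had -1.95, -1.89, -2.24 and -2.10 on E7386 arrays, against -2.52, -2.95, -2.66 and -2.41 on vehicle arrays. Its groups did not overlap, and the log2 change was 0.59 (SE 0.13, limma adjusted p = 0.092). Gadd45b, a stress-response gene, had a log2 change of 0.41 (SE 0.11, limma adjusted p = 0.129), and Sgk1, a serum and glucocorticoid induced kinase, 0.36 (SE 0.11, limma adjusted p = 0.183). Sgk1 is 1 of 4 genes that are also on the list of glucocorticoid-induced genes, and it is the only one of those 4 among the 12. The glucocorticoid list, like the others, was chosen with earlier results of these data known, so its counts are not independent support. Means were higher with E7386 for all 17 glucocorticoid-induced genes, and 6 rose. Over all genes 1.12% were called in either direction, with 191 of 25352 called higher. The 6 genes are named next. These 6 were Angptl4 (log2 change 2.49), Fkbp5 (1.89), Zbtb16 (1.76), Lcn2 (1.52), Klf9 (0.93) and Tsc22d3 (0.82), whose limma adjusted p ranged from 0.00769 to 0.046. Angptl4 and Zbtb16 stayed called whichever 1 array was left out, and the other 4 did not. Without the 3 arrays of lowest muscle level Angptl4 alone was called.

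Among the tested partners of FOS and JUN, and the tested EGR and NAB genes, none was called. Of 17 listed basic leucine zipper partners 15 were tested, with 0 called by limma. An unadjusted p under 0.05 was reached by 3 of the 15, and by 15.2% of all genes in either direction. Mafk, a small MAF protein, was at 0.43 (SE 0.11) and Maff, another, at 0.42 (SE 0.14), while Jdp2, a repressor that pairs with JUN, was at -0.27 (SE 0.07). The groups of arrays did not overlap for any of these 3, nor for 10.5% of all genes. The limma adjusted p was 0.115 for Mafk, 0.22 for Maff and 0.136 for Jdp2. Egr2 was at -0.20 (SE 0.13), Nab1 at -0.18 and Nab2 at -0.11, while Egr4 was too dim to be tested. NAB proteins bind EGR factors and repress them. None of these 3 genes passed, at an unadjusted p under 0.05 or over all genes.

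Upstream of these promoters, 2 of 31 genes rose and none fell, against 1.12% of all genes called. Map3k8, the kinase TPL2 that activates the ERK pathway, had -0.35, -0.31, -0.54 and -0.29 on E7386 arrays, against -0.96, -1.11, -1.09 and -1.06 on vehicle arrays. Its groups lay apart, 1.60-fold higher with E7386 (log2 change 0.68, SE 0.08, limma adjusted p = 0.00934), and the call held in 21 of 23 alternative settings. Myocd, a coactivator of serum response factor best known from smooth muscle and heart, had -3.44, -3.73, -3.32 and -3.50 on E7386 arrays, against -4.38, -4.89, -5.33 and -5.03 on vehicle arrays. All 8 arrays were well above background, and the log2 change was 1.41 (SE 0.20, limma adjusted p = 0.0188), but 0.38 with normexp and quantile normalization (limma adjusted p = 0.0352). The call of Myocd held in 17 of 23 alternative settings and was lost without E7386 replicate 3 or 4 and without vehicle replicate 2 or 4. Without the 3 arrays of lowest muscle level neither gene was called, and with the muscle level as a covariate on all 8 arrays both were. Mrtfb, another coactivator of serum response factor, had the next smallest p, with a log2 change of 0.25 (SE 0.07, limma adjusted p = 0.139).

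Of genes described as AP-1 or EGR targets 1 passed the test. Of 32 listed 29 were tested, with a median log2 change of -0.08, beside 0.0088 over all genes. Past the threshold 0 were higher and 1 was lower, where 1.12% of all genes passed in either direction. The gene that fell was Ccnd1, which encodes cyclin D1 and is also a Wnt target, with 3.21, 3.11, 2.74 and 2.84 on E7386 arrays and 3.91, 3.82, 3.70 and 3.62 on vehicle arrays. Its log2 change was -0.79 (SE 0.12, limma adjusted p = 0.0294) and its groups did not overlap. The call held in 13 of 23 alternative settings and was lost without any 1 of the arrays except E7386 replicate 1. Ccl2, a monocyte chemokine, was at -0.58 (SE 0.22, limma adjusted p = 0.274), with groups that overlapped.

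Heat shock genes, chaperones induced by stress, had lower means with E7386 in 10 of 14 cases. Of these 14 none passed over all genes by limma, 5 had lower means at an unadjusted p under 0.05, where 7.72% of all genes did, and 0 had higher means. The mean log2 level of the 14 was 4.07 to 4.16 on E7386 arrays and 4.25 to 4.30 on vehicle arrays. Chordc1, a co-chaperone of HSP90, was at -0.39 (SE 0.09, limma adjusted p = 0.0977), Hspe1, a mitochondrial co-chaperonin, at -0.29 (SE 0.08), and Hsp90aa1, the inducible HSP90, at -0.26 (SE 0.08). Without the 3 arrays of lowest muscle level the count of 5 was 3, and with the muscle level as a covariate it was 7. Of 7 lists of cell type markers, none held a called gene, where 1.12% of all genes tested were called. The fat list had the largest median log2 change, 0.33, with a mean level of -1.25 to 0.32 on E7386 arrays and -1.96 to -0.48 on vehicle arrays. At an unadjusted p under 0.05, 3 of its 10 genes had higher means and 0 lower, where 7.47% and 7.72% of all genes did. Its groups of arrays did not overlap for 2 of the 10, against 10.5% of all genes.

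**Figure D4:**
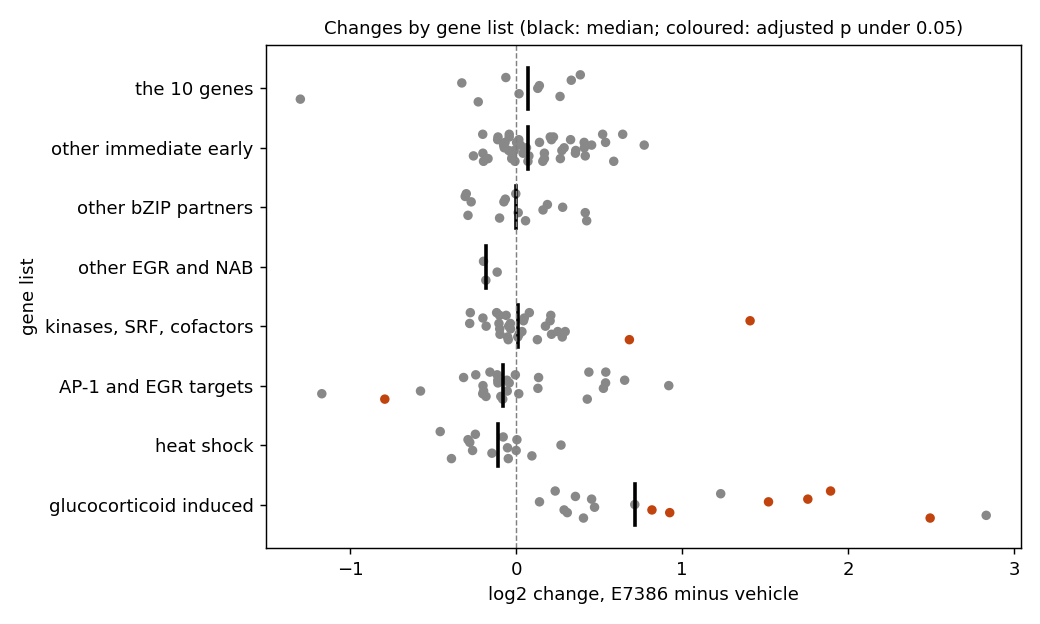
Log2 change, E7386 minus vehicle (x axis), of each tested gene by list (y axis), with a black line at the list's median and coloured points for genes with adjusted p under 0.05. The medians of the 10 genes and of the other immediate early genes are both 0.07, and the glucocorticoid list lies at 0.71 with 6 coloured points.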

How the data were processed

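Total RNA of 8 whisker follicle samples, 50 ng each, was hybridised to 1-colour Agilent arrays. The scanner files hold spot intensities made by the authors with Feature Extraction. The file headers give its version as 11.5.1.1, and the submitters' processing notes as 11. The authors' deposited value table holds log2 values whose sorted values are the same in every column (median 5.31), with the rank order of the processed signal. It was used as an alternative.

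Non-uniform and population outlier spots were left out, between 107 and 150 per array. Log2 processed signals were averaged per probe and the 75th percentile over 55681 probes was subtracted. Scaling to the percentile over spots was also computed (294 genes called, against 284), and the probe level was kept after both counts had been seen. Unversioned RefSeq accessions gave 27509 probes a symbol from a GRCm38.p6 table; the array design is on mm9. Each gene took its probe with the highest mean, and 25352 genes well above background on at least 3 of 4 arrays of a group were fitted with lmFit and eBayes (limma 3.58.1, R 4.3.3), with Benjamini-Hochberg adjustment. The fit was tested on simulated data. Precision is limited by having 4 arrays in a group. The 10 genes and all lists were chosen with earlier results of these data known. Besides the 10 genes, the text names called genes and the 3 smallest p-values of each list other than markers (1 gene under this rule is not reported here), and the 10 nearest genes. Scaling, source, filter, probe choice, variance model, weights, marked spots, replicate block, muscle level, threshold and each array were varied.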

Additional observations from a re-analysis of the deposited data

Results flagged for a closer look

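The mean deviation of the 10 immediate early genes on vehicle replicate 1 stood apart from the other vehicle arrays. It was 0.28 on the log2 scale, against -0.14 to -0.07 on the other 3, and its gap to the nearest of them was 0.834 of the group's whole range, above Dixon's 95% critical value for 4 samples. Without Egr3, the gene nearest background, the values were 0.27 against -0.13 to -0.05 and the gap was 0.781 of the range, below the critical value, so the flag rests on including that gene. It was the only flag among 22 groups of 4 values examined, and chance flags about 1 group in 20. The same array had the lowest muscle marker level, 1.62, and 59.1% of all genes tested lay above their group mean on it. The part of either in the deviation was not tested.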

How the results depend on the processing

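Under the 23 alternatives none of the 10 genes was called in 20, and Fosl2 alone was called in 3, which were normexp on median signals followed by quantile normalization (called normexp here), eBayes with trend and robust options, and an adjusted p under 0.1 (1 gene each). Fosb, Fosl2, Jun, Junb, Egr1 and Atf3 kept their sign in all 23. Fosl1 turned to -0.0865 with normexp, -0.0591 with array medians, -0.0655 with quantile normalization, -0.0658 with the authors' deposited table and -0.0288 with array weights. When 1 array was left out Fosl1 ran from -0.101 to 0.143, Fos from -0.443 to 0.058 and Jund from -0.16 to 0.0301. Without the 3 arrays of lowest muscle level Fos was at 0.0261 and Jund at 0.0535. Genes without overlap numbered 2 with normexp, quantile normalization and the authors' table (Fosl2 and Egr3). They numbered 3 without the low-muscle arrays, 0 with probes averaged, and 1 to 3 when 1 array was left out. Egr3, of which no test is read, was among them wherever the count was above 1. The share of all genes without overlap was not counted under these settings, and groups of fewer arrays separate more easily.

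The 284 genes called became 480 with normexp, 154 without a filter, 59 with the replicate block, 576 with the muscle covariate, 687 at an adjusted p under 0.1, 48 without the low-muscle arrays, and 88 to 240 when 1 array was left out. The counts of other immediate early genes at an unadjusted p under 0.05 were 6 higher and 3 lower with array medians, 7 and 2 without the low-muscle arrays, and 7 to 12 and 0 to 1 when 1 array was left out. The lower count was 1 with normexp, with probes averaged and with the replicate block. With the muscle covariate the counts were 14 higher and 2 lower. At an adjusted p under 0.1, 1 such gene (Nfkbiz) and 1 heat shock gene (Chordc1) were called, and with normexp 1 heat shock gene (Hspe1). Heat shock genes with lower means at an unadjusted p under 0.05 were 3 without the low-muscle arrays and 4 to 6 when 1 array was left out. They were 7 with normexp, array medians, probes averaged and the muscle covariate. The causes were not tested.

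Samples share replicate numbers. The deviations of same-numbered samples correlated at 0.49, -0.17, 0.29 and 0.18 over 25325 genes. Only E7386 replicate 1 was closest to the vehicle sample of its own number. E7386 replicate 2 was closest to vehicle replicate 1 (0.23), E7386 replicate 3 to vehicle replicate 4 (0.38) and E7386 replicate 4 to vehicle replicate 2 (0.27). Such correlations cannot show whether same-numbered samples were paired, because other differences between samples also enter the deviations. The replicate block is therefore given as an alternative only. With the replicate block Fosl2 kept its change of 0.39 (limma adjusted p = 0.158), and none of the 6 named glucocorticoid genes, Map3k8, Myocd or Ccnd1 was called. Normexp on mean signals was not run, because the files used hold no mean signal. Egr3 has no value where all 8 arrays must be well above background.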

Other observations

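E7386 replicate 1, the array with the lowest Atf3 level of all 8, had the highest mean log2 level of the 10 tested immune cell markers. That level was 2.10, 1.56, 0.99 and 1.13 on E7386 replicates 1 to 4 and 1.28, 1.23, 1.56 and 1.16 on vehicle replicates 1 to 4. S100a9, a calcium-binding protein abundant in neutrophils, had 5.44, 2.63, 0.75 and 0.91 on E7386 arrays, against 0.96, -0.35, 2.19 and 1.08 on vehicle arrays, and S100a8, its partner, had 4.54 on E7386 replicate 1. The rank rests on these 2 genes. Over the other 8 markers the level was 0.95 to 1.37 on E7386 arrays and 1.13 to 1.43 on vehicle arrays, highest on vehicle replicate 3. S100a8 and S100a9 were singled out after their values were seen, and their part in the Atf3 value was not tested.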
